A study of Mus musculus with 8 samples.

Results

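The stem cells at the base of the intestinal crypt divide throughout life and feed every lineage of the epithelium. Wnt signals from the surrounding mesenchyme and from neighbouring Paneth cells maintain them, and BMP signals, which act through Smad4, are low at the crypt base and rise towards the villus. The 10 genes described here, Olfm4, Smoc2, Prom1, Lrig1, Ascl2, Sox9, Msi1, Cdca7, Slc12a2 and Aqp4, are used as markers of that compartment. They were chosen by name, and all 10 were found among the 23951 gene symbols of the deposited table. Several of them are not restricted to stem cells: Sox9 and Slc12a2 are also known in other crypt cells, and Prom1 in progenitors.

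The study sequenced RNA of jejunal crypts from mice of 3 genotypes, in 8 libraries. Every mouse carried the conditional activating allele BRAF-V600E f/+ and Villin-CreER(T2), a tamoxifen-activated recombinase driven by a promoter of the intestinal epithelium. SMAD4KO_BRAF mice (3 libraries) also carried Smad4 f/f, CDX2KO_BRAF mice (2 libraries) also carried Cdx2 f/f, and BRAF mice (3 libraries) carried no further floxed gene. Tamoxifen was injected on 4 consecutive days, and crypts were collected 1 day later by release in 3 mM EDTA and passage through a 70 micron filter, so the samples are bulk crypts and not sorted stem cells. The ages of the mice are not given in the sources used here.

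The values are FPKM, reads scaled by transcript length and library size, as deposited by the authors. Differences are given as log2(FPKM + 1), a scale that understates changes of genes at low FPKM, with the standard error and limma's p adjusted over 12084 genes, those that reached 1 FPKM in 2 or more libraries. All 10 markers passed that filter. A gene is said to pass, rise or fall where the adjusted p is under 0.05.

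Facts of the whole series that bear on these genes are few. The FPKM of a library summed to 431269 to 595547. Low values put the libraries' depths at 0.717 to 1.46 times that of BRAF library 0. These depths are rough, since the commonest ratio of low values rested on 14 to 60 genes per library. The number of reads is unknown, so no counting error can be given. Smad4 was at 7.66 to 10.7 FPKM in SMAD4KO_BRAF, 40.1 and 35.3 in the labelled CDX2KO_BRAF libraries and 42.4 to 46.97 in BRAF. Cdx2 went against its label, with 155 and 121 FPKM in the libraries labelled CDX2KO_BRAF, 75.1 to 93.1 in SMAD4KO_BRAF and 64.2 to 82.6 in BRAF. Whole-gene FPKM cannot show whether the floxed part of Cdx2 was lost, so every direction below for those 2 libraries rests on their label. BRAF library 1 stood apart in genes of lymphocytes, whose summed FPKM over 12 genes was 974 against 33.2 and 166 in the other BRAF libraries. Y-linked genes marked SMAD4KO_BRAF library 0 and BRAF library 0 as male and the other 6 libraries as female. SMAD4KO_BRAF and BRAF thus each held at least 2 animals, but the labels do not say that every library came from its own animal, so part of the spread behind a p-value may be technical.

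The promoter of Prom1 is shown first, since Prom1 was the marker that changed against BRAF. It encodes prominin-1, or CD133, a membrane protein of cell protrusions. The table of promoters used here, drawn from RefSeq with build GRCm38.p6, matched 5 of the 10 markers and gave 2 starts for Prom1, on the minus strand 6968 bases apart. The 250 bases upstream of each are printed 5′ to 3′, with capitals for any match to the CDX core TTTAT, the TCF/LEF motif CTTTGA or the SMAD box CAGAC on either strand.
Prom1, start at the 5′ side, chr5:44101737-44101986: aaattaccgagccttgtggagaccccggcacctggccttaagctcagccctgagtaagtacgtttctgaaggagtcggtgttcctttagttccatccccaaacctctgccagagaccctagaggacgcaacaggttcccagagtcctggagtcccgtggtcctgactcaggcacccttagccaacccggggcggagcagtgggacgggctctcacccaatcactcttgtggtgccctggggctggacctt
Prom1, start further into the gene, chr5:44094769-44095018: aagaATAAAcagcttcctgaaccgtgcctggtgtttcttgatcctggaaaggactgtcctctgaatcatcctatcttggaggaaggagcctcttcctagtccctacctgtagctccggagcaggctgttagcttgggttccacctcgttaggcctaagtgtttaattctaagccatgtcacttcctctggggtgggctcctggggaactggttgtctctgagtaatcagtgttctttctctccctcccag
The first window held no match to any of the 3 motifs, and the second held 1 match to the CDX core, on the reverse strand. Of 32851 promoters of the same length, 37.3% held the CDX core, 13.8% the TCF/LEF motif and 42.2% the SMAD box. A match describes letters only, and the FPKM, which were made on another build, do not tell the 2 starts apart. Promoters of Smoc2 and Msi1, the other markers that passed in a comparison, were not analysed here.

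Across all 8 libraries the markers spanned a wide range of FPKM. Olfm4 was the highest, with a median of 317 FPKM, followed by Prom1 at 57.4, Slc12a2 at 56.7, Smoc2 at 37.1, Lrig1 at 33.0, Cdca7 at 25.3, Aqp4 at 14.4, Sox9 at 11.9, Msi1 at 4.22 and Ascl2 at 1.91. Below Olfm4, each marker's range over the libraries overlapped that of its neighbour in this order, so the order is not firm there. It also differed by group. The means after Olfm4 were highest for Slc12a2 (90.6), Smoc2 (79.8) and Prom1 (58.4) in SMAD4KO_BRAF, for Prom1 (84.1), Slc12a2 (42.1) and Lrig1 (33.6) in the labelled CDX2KO_BRAF libraries, and for Slc12a2 (53.8), Prom1 (35.0) and Smoc2 (34.2) in BRAF. Lrig1 varied least, by 1.61 times between its lowest and highest library, and Smoc2 most, by 7.16 times.

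**Figure D1:**
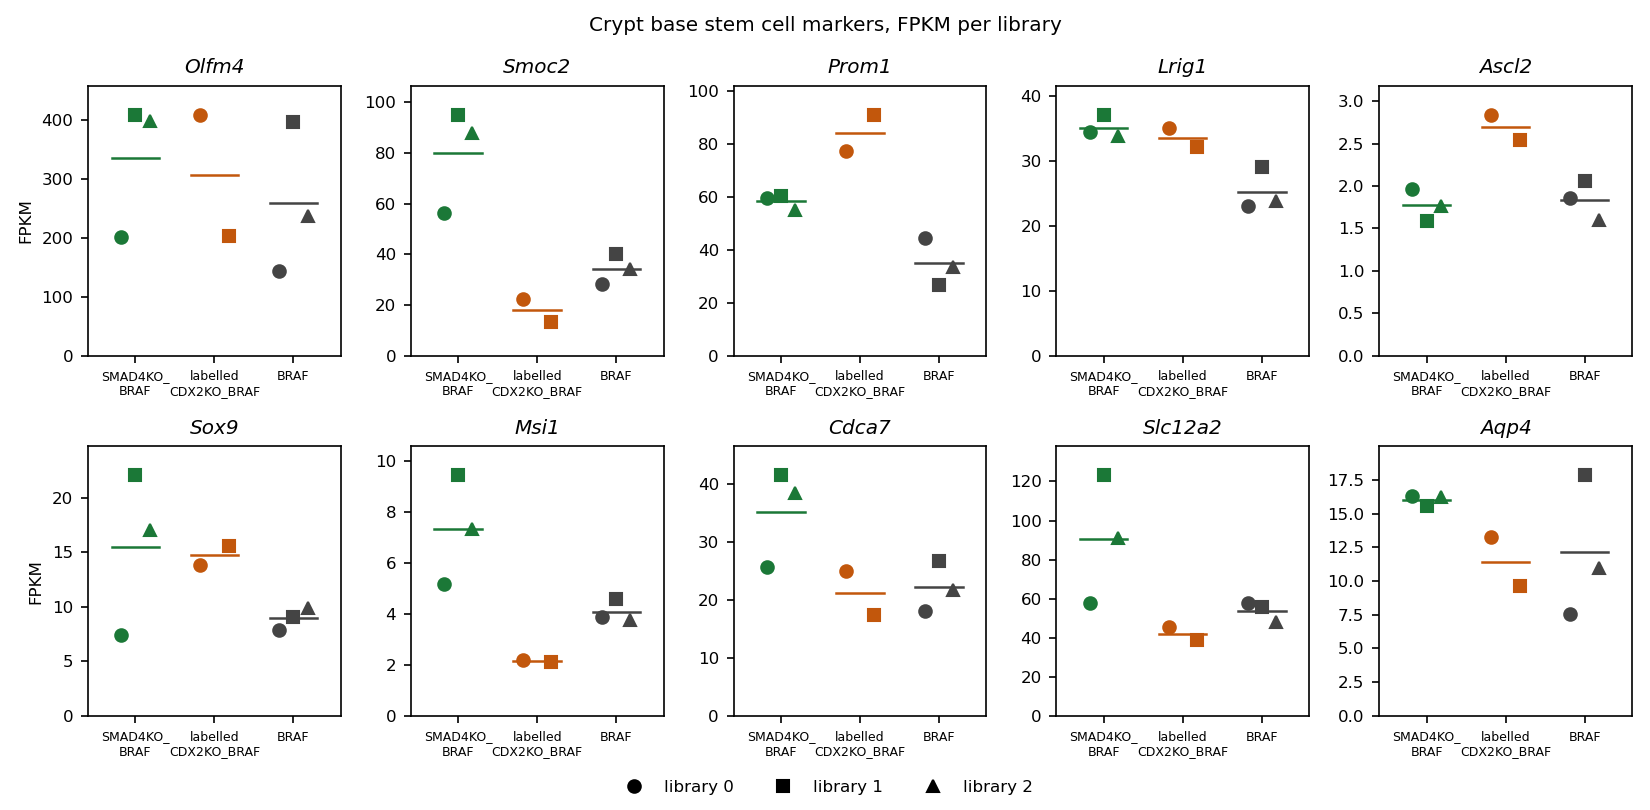
FPKM (vertical axis, linear from 0) of the 10 markers in each group, with 1 point per library, its shape giving the library number, and a line at the group mean. Smoc2 and Msi1 lie above the BRAF libraries in SMAD4KO_BRAF and below them in the labelled CDX2KO_BRAF libraries, while Prom1 lies above them in both.

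Loss of Smad4 was set against BRAF alone to ask what it adds in crypts with the activated kinase. In SMAD4KO_BRAF 9 of the 10 markers had higher means on the log scale, with a median difference of log2 0.62 where the median of all genes tested was -0.01. None passed after adjustment over all genes, nor did many others: 9 of 12084 genes, or 0.0745%, were called. At an unadjusted p under 0.05, 6 of the 10 markers were higher and 0 lower, beside 6.07% and 9.05% of all genes. In 4 markers, Smoc2, Prom1, Msi1 and Lrig1, all SMAD4KO_BRAF libraries lay above all BRAF libraries, which 8.99% of all genes did. Under library weights 6 markers passed as higher, namely Smoc2, Prom1, Msi1, Lrig1, Cdca7 and Slc12a2, and 1069 genes in all passed. In the libraries labelled CDX2KO_BRAF the markers split. Prom1 rose against BRAF, the only marker to pass, where 14.1% of all genes passed in either direction, and 5 of the 10 had positive and 5 negative differences (median log2 0.13, against 0.02 over all genes). Both labelled libraries lay above all BRAF libraries in 4 markers and below them in 3, beside 25.7% and 22.7% of all genes. Between the 2 deletions, Smoc2 and Msi1 fell in the libraries labelled CDX2KO_BRAF relative to SMAD4KO_BRAF, where 5.01% of all genes fell. The labelled libraries lay above all SMAD4KO_BRAF libraries in 2 markers and below them in 5, beside 25.1% and 22.2% of all genes. Both comparisons with BRAF share the same BRAF libraries.

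The secreted markers come first. Smoc2 encodes a matricellular protein that modulates BMP signals, and it is a gene of Lgr5-positive stem cells. Its FPKM was 56.4, 95.0 and 88.0 in SMAD4KO_BRAF, 22.3 and 13.3 in those labelled CDX2KO_BRAF, and 28.4, 40.2 and 34.0 in BRAF, in libraries 0, 1 and 2. The 3 groups did not overlap, and averaged 79.8 ± 20.6 (SD, n = 3), 17.8 ± 6.43 (n = 2) and 34.2 ± 5.87 (n = 3) in that order. Relative to SMAD4KO_BRAF, Smoc2 fell in the libraries labelled CDX2KO_BRAF to 0.223 of its mean (log2 -2.11 ± 0.29, limma adjusted p = 0.00656). Against BRAF it was at log2 1.18 ± 0.26 in SMAD4KO_BRAF (adjusted p = 0.179) and at -0.93 ± 0.29 in the labelled libraries (adjusted p = 0.0811), neither of which passed. In the labelled libraries it passed with sex as a term (-1.11, adjusted p = 0.0261), with library weights (0.0278) and without SMAD4KO_BRAF library 0 (0.0495). The fall between the deletions did not pass without CDX2KO_BRAF library 1 (-1.76, adjusted p = 0.0606, range over 19 alternatives 0.00187 to 0.0606). The -0.93 against BRAF was -0.58 without that library.

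Smoc2 is also known from fibroblasts, so genes of mesenchyme and muscle are given beside it. Over 12 such genes the summed FPKM was 11.9 to 49.2 in SMAD4KO_BRAF, 4.60 and 20.7 in the labelled CDX2KO_BRAF libraries and 10.6 to 127 in BRAF. Of the 8 tested, none passed in either comparison with BRAF, and their medians were log2 -0.43 and -1.40. Within each of SMAD4KO_BRAF and BRAF, library 0 was lowest both for this sum and for Smoc2, and in BRAF library 1 was highest for both. In the labelled libraries, library 0 had the lower sum and the higher Smoc2. The part of mesenchymal RNA in the Smoc2 values was not tested.

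Olfm4 encodes olfactomedin-4, a secreted glycoprotein abundant in stem cells of the small intestine. It had 201, 409 and 399 FPKM in SMAD4KO_BRAF, 409 and 204 in those labelled CDX2KO_BRAF, and 144, 398 and 237 in BRAF. High and low libraries occurred in every group, and the groups overlapped in all comparisons. The difference was log2 0.42 ± 0.47 in SMAD4KO_BRAF (limma adjusted p = 0.667) and 0.27 ± 0.52 in the labelled libraries (adjusted p = 0.759). Single libraries moved both values. In SMAD4KO_BRAF it was 0.06 without BRAF library 0 and 0.79 without BRAF library 1, and in the labelled libraries -0.22 without CDX2KO_BRAF library 0 and 0.77 without library 1.

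Among the membrane proteins, Prom1 had 59.8, 60.5 and 55.1 FPKM in SMAD4KO_BRAF, 77.2 and 91.1 in those labelled CDX2KO_BRAF, and 44.6, 26.8 and 33.6 in BRAF. The order of the groups was the labelled CDX2KO_BRAF libraries, then SMAD4KO_BRAF, then BRAF, with no overlap, at means of 84.1 ± 9.78 (SD, n = 2), 58.4 ± 2.93 (n = 3) and 35.0 ± 9.003 (n = 3). Prom1 rose 2.40 times in the means of the labelled libraries relative to BRAF (log2 1.27 ± 0.20, limma adjusted p = 0.00834). Its difference was 0.75 ± 0.18 in SMAD4KO_BRAF against BRAF (adjusted p = 0.190) and 0.51 ± 0.20 between the labelled CDX2KO_BRAF libraries and SMAD4KO_BRAF (adjusted p = 0.146). Leaving out CDX2KO_BRAF library 1 was the only one of 19 alternatives to end the call (1.15, adjusted p = 0.0820). Tuft cell genes, which mark a chemosensory cell type, also stood higher in these libraries, with a summed FPKM over 9 genes of 50.5 and 129, against 13.4 to 15.3 in BRAF. Of 7 tuft cell genes tested, 6 rose, beside 6.89% of all genes. The 2 labelled libraries alone can carry a gene past the filter, which limits that count. The part of tuft cells in the Prom1 rise was not tested.

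Lrig1 encodes a transmembrane inhibitor of ErbB receptors that marks stem cells, including slowly cycling ones. Its FPKM was 34.5, 37.1 and 33.8 in SMAD4KO_BRAF, 35.0 and 32.2 in those labelled CDX2KO_BRAF, and 23.0, 29.03 and 23.8 in BRAF. Both deletions lay above every BRAF library and overlapped each other. The difference was log2 0.46 ± 0.11 for SMAD4KO_BRAF (limma adjusted p = 0.190) and 0.40 ± 0.13 for the labelled libraries (adjusted p = 0.0794), and -0.06 ± 0.13 between them (adjusted p = 0.779). None of these passed in the main fit. With library weights both SMAD4KO_BRAF (0.0373) and the labelled libraries (0.0186) passed against BRAF, and the labelled libraries also without BRAF library 1 (0.0399).

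**Figure D2:**
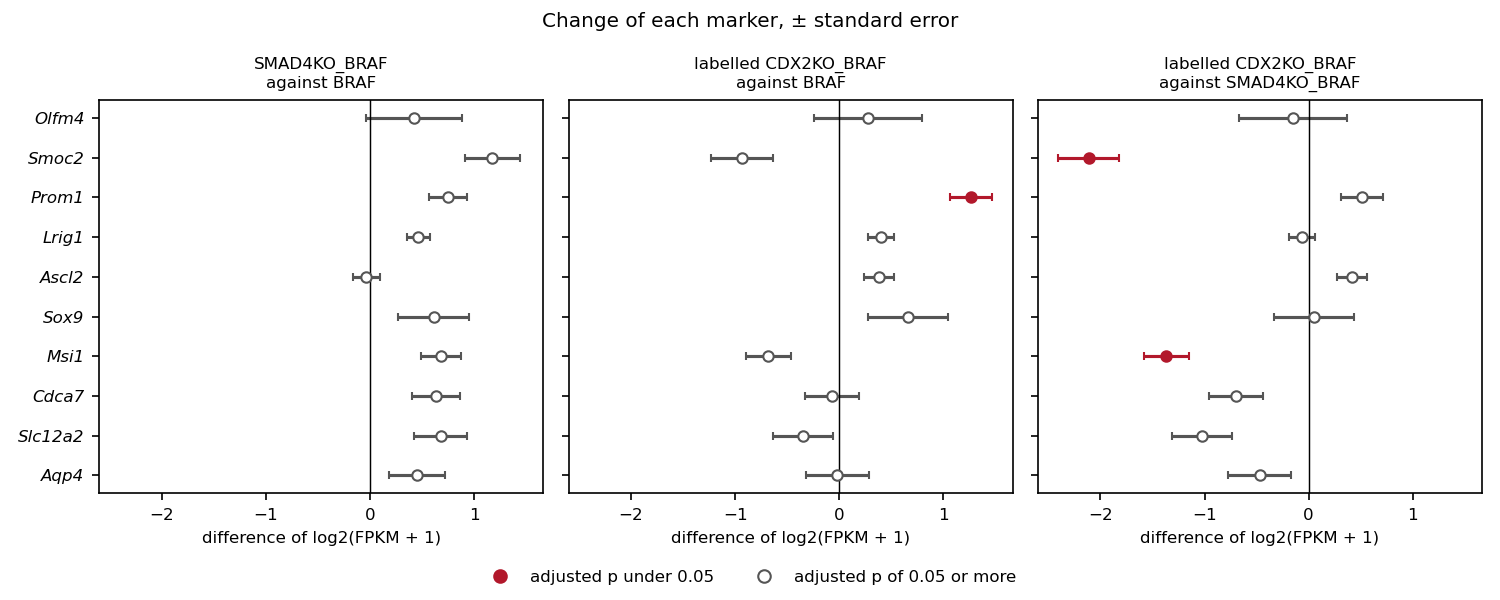
Difference of log2(FPKM + 1) for each marker (horizontal axis), in the 3 comparisons, with the standard error as bars and filled points where the adjusted p was under 0.05. The filled points are Prom1 at 1.27 in the libraries labelled CDX2KO_BRAF against BRAF, and Smoc2 at -2.11 and Msi1 at -1.37 in those libraries against SMAD4KO_BRAF.

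Ascl2 and Sox9 encode transcription factors. Ascl2 is the basic helix-loop-helix factor that specifies intestinal stem cell fate downstream of Wnt. Its FPKM was low everywhere, at 1.97, 1.58 and 1.76 in SMAD4KO_BRAF, 2.84 and 2.55 in those labelled CDX2KO_BRAF, and 1.86, 2.06 and 1.60 in BRAF. It was the one marker with a negative difference in SMAD4KO_BRAF (log2 -0.03 ± 0.13, limma adjusted p = 0.924, and positive in 3 alternatives), and both labelled CDX2KO_BRAF libraries lay above the other 6. Against BRAF that difference was 0.38 ± 0.15 (adjusted p = 0.138), which passed only with library weights (0.0405).

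Sox9 encodes an HMG-box factor downstream of Wnt, present in stem cells and required for Paneth cells. It had 7.40, 22.1 and 17.0 FPKM in SMAD4KO_BRAF, 13.8 and 15.6 in those labelled CDX2KO_BRAF, and 7.90, 9.07 and 9.92 in BRAF. SMAD4KO_BRAF libraries 1 and 2 lay above every BRAF library and library 0 below them. The labelled libraries lay above BRAF, at log2 0.66 ± 0.38 (limma adjusted p = 0.304), which passed in a fit of these groups alone (0.0446) and without SMAD4KO_BRAF library 0 (0.0388). SMAD4KO_BRAF was at 0.61 ± 0.34 (adjusted p = 0.421), and at 1.04 without its library 0 and 0.31 without its library 1. Paneth cell genes had a summed FPKM over 14 genes of 18785 to 30756 in SMAD4KO_BRAF, 6910 and 8821 in the labelled libraries and 10622 to 21350 in BRAF. Of these 14, 12 were positive and 2 negative in SMAD4KO_BRAF (median log2 0.90), and 0 rose and 0 fell, where 0.0745% of all genes were called. In the libraries labelled CDX2KO_BRAF against BRAF, 5 were positive and 9 negative (median log2 -1.43). There 4 fell, beside 7.21% of all genes, while Sox9 had a positive difference. The part of Paneth cells in the Sox9 values was not tested.

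Msi1 encodes Musashi-1, an RNA-binding protein of stem and progenitor cells. Its FPKM was 5.18, 9.44 and 7.31 in SMAD4KO_BRAF, 2.18 and 2.13 in those labelled CDX2KO_BRAF, and 3.87, 4.58 and 3.76 in BRAF. As for Smoc2, the groups did not overlap and the deletions lay on opposite sides of BRAF, with means of 7.31 ± 2.13 (SD, n = 3) in SMAD4KO_BRAF, 2.15 ± 0.0386 (n = 2) in the labelled libraries and 4.07 ± 0.442 (n = 3) in BRAF. In the labelled libraries Msi1 fell to 0.295 of the SMAD4KO_BRAF mean (log2 -1.37 ± 0.22, limma adjusted p = 0.0104). That call ended without CDX2KO_BRAF library 0 (-1.38, adjusted p = 0.0698) or library 1 (-1.35, adjusted p = 0.0836), each of which leaves 1 labelled library. Against BRAF, Msi1 was at 0.68 ± 0.19 in SMAD4KO_BRAF (adjusted p = 0.238) and at -0.68 ± 0.22 in the labelled libraries (adjusted p = 0.0850). The value in the labelled libraries passed with sex as a term (-0.79, adjusted p = 0.0398), with library weights (0.0319), in a fit of these groups alone (0.0457) and without SMAD4KO_BRAF library 0 (0.0331).

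Cdca7 encodes a chromatin protein that works with the remodeller HELLS and is expressed in dividing cells. It had 25.7, 41.6 and 38.5 FPKM in SMAD4KO_BRAF, 25.0 and 17.4 in those labelled CDX2KO_BRAF, and 18.2, 26.7 and 21.7 in BRAF. SMAD4KO_BRAF libraries 1 and 2 exceeded all others, and library 0 lay within the BRAF range. The difference was log2 0.63 ± 0.23 in SMAD4KO_BRAF (limma adjusted p = 0.292) and -0.07 ± 0.26 in the labelled libraries (adjusted p = 0.882). Between the deletions it was -0.70 ± 0.26 (adjusted p = 0.125), which passed with library weights (0.0338) and with sex as a term (0.0285).

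Slc12a2 encodes the basolateral sodium-potassium-chloride cotransporter NKCC1, which loads crypt cells with chloride for secretion. Its FPKM was 57.6, 123 and 90.9 in SMAD4KO_BRAF, 45.4 and 38.8 in those labelled CDX2KO_BRAF, and 57.6, 55.9 and 47.9 in BRAF. The labelled libraries lay below the other 6, and SMAD4KO_BRAF library 0 lay just under the highest BRAF library. Between the deletions the difference was log2 -1.02 ± 0.29 (limma adjusted p = 0.0629), which passed in fits with library weights (0.0152), with sex as a term (0.0426), in female libraries alone (0.0219) and without SMAD4KO_BRAF library 0 (0.0151). Against BRAF it was 0.68 ± 0.26 in SMAD4KO_BRAF (adjusted p = 0.301) and -0.35 ± 0.29 in the labelled libraries (adjusted p = 0.467).

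Aqp4 encodes a water channel found in crypt base cells and, in the stomach, in parietal cells. It had 16.3, 15.6 and 16.2 FPKM in SMAD4KO_BRAF, 13.2 and 9.62 in those labelled CDX2KO_BRAF, and 7.56, 17.8 and 10.98 in BRAF. The SMAD4KO_BRAF libraries lay close together inside the wide BRAF range. No comparison passed, with log2 0.45 ± 0.27 in SMAD4KO_BRAF (limma adjusted p = 0.448) and -0.02 ± 0.31 in the labelled libraries (adjusted p = 0.975). The first was 0.18 without BRAF library 0 and 0.75 without BRAF library 1, and the second was -0.29 and 0.28 without them. Gastric genes were high in the labelled libraries, with a summed FPKM over 14 genes of 2682 and 8733, against 1.38 to 158 in BRAF. Of these 14, 7 passed the filter for testing. The 2 labelled libraries alone can carry a gene past that filter, so no count of rises is drawn from them. Parietal cell genes were near 0 throughout, with a summed FPKM over 6 genes of 0.419 to 0.649 in SMAD4KO_BRAF, 1.02 and 1.96 in the labelled libraries and 0.179 to 0.276 in BRAF.

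The markers also differed between libraries of the same group. Relative to the BRAF mean, Olfm4 was at log2 -0.25, 0.78 and 0.74 in SMAD4KO_BRAF, 0.77 and -0.22 in the labelled CDX2KO_BRAF libraries and -0.72, 0.73 and -0.01 in BRAF. The median of 20 proliferation genes, such as Mki67 and the Mcm helicase genes, was at -0.05, 0.40 and 0.37, then 0.48 and 0.04, then -0.17, 0.27 and -0.10 in the same libraries. In each group the libraries with the higher Olfm4 were those with the higher proliferation median. Cdca7 and Olfm4 gave the same order of libraries within each group. Smoc2 also gave that order within each group, while its level in both labelled libraries was below every other library. No proliferation gene passed in SMAD4KO_BRAF, and 1 of 20 rose in the labelled libraries against BRAF, beside 6.89% of all genes. The part of proliferation in the marker values was not tested.

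**Figure D3:**
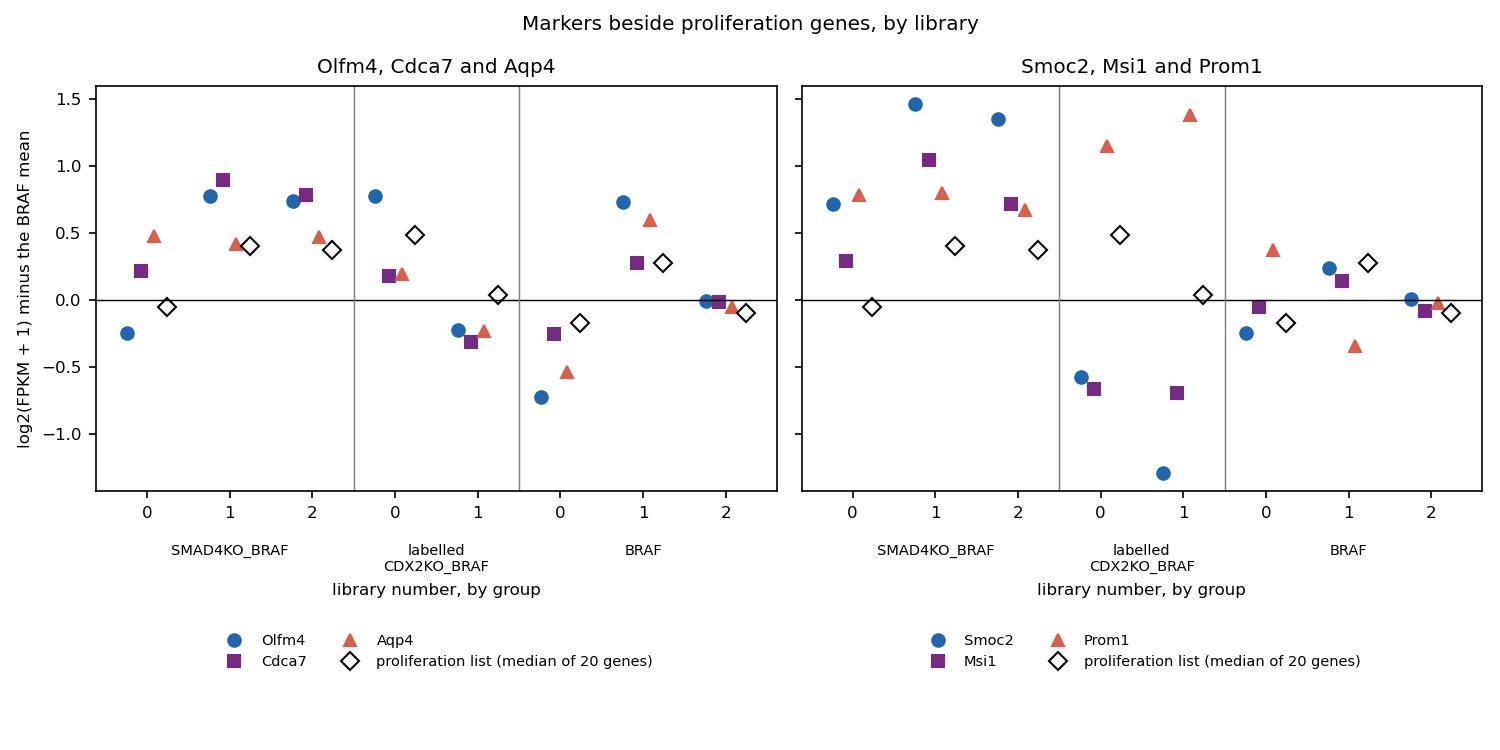
Log2(FPKM + 1) minus the BRAF mean (vertical axis) in each library, for 3 markers per panel and for the median of 20 proliferation genes (open diamonds). Olfm4 spreads within every group, between -0.72 and 0.73 in BRAF, while Prom1 is at 1.15 and 1.38 in the labelled CDX2KO_BRAF libraries.

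Taking all 10 markers per library, their median relative to the BRAF mean was log2 0.25, 0.85 and 0.73 in SMAD4KO_BRAF, 0.32 and -0.23 in the labelled CDX2KO_BRAF libraries, and -0.14, 0.17 and -0.04 in BRAF. SMAD4KO_BRAF library 0, from a male mouse, was the lowest of its group, as was BRAF library 0, also male. Within females alone the median difference of the markers in SMAD4KO_BRAF was 0.78, and between the male libraries, 1 of each group, it was 0.45 with no test. Enterocyte genes were lower in the same libraries, with a median of log2 -1.16 over 16 genes in SMAD4KO_BRAF and -2.43 in the labelled libraries against BRAF. In SMAD4KO_BRAF none of the 16 passed, while 12 were lower at an unadjusted p under 0.05, beside 9.05% of all genes. In the labelled libraries 12 fell against BRAF, beside 7.21% of all genes. In bulk crypts, more stem cells or fewer enterocytes and more or less RNA per cell cannot be told apart, and the part of the enterocyte genes in the marker values was not tested. Without BRAF library 1, the library rich in lymphocyte genes, the median of the markers was 0.73 in SMAD4KO_BRAF and 0.36 in the labelled libraries.

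For each marker with a standard deviation of at least log2 0.5 over the 8 libraries, the closest profiles among 8936 other genes were listed, by the root-mean-square difference of centred log2 values. For Olfm4 these were E2f8 (0.21) and Hells (0.25). Smoc2 was nearest to Hsd11b2 (0.28) and Wnk4 (0.31), Prom1 to Tmem106c (0.17) and N4bp3 (0.19), and Msi1 to Pla2g5 (0.18) and Amica1 (0.19). Slc12a2 was nearest to Spata24 (0.20) and Car12 (0.25), and Sox9 to Prkrir (0.22) and Myc (0.23). Among the markers themselves, Msi1 and Slc12a2 were the closest pair (0.19). These are descriptions over 8 libraries.

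A list of 29 other genes reported in crypt stem cells was read beside the markers. In SMAD4KO_BRAF 23 were positive and 6 negative, with a median of log2 0.36 beside -0.01 over all genes, and none passed in limma. At an unadjusted p under 0.05, 11 were higher and 2 lower, beside 6.07% and 9.05% of all genes. With library weights 8 of the 29 passed, with sex as a term 2, and without BRAF library 1 only 1. Over all genes 1069, 78 and 25 passed in these fits. Lgr5, the R-spondin receptor that defines crypt base columnar cells, was at 5.19, 5.88 and 6.72 FPKM in SMAD4KO_BRAF, 3.03 and 2.44 in the labelled CDX2KO_BRAF libraries and 1.48, 2.35 and 1.26 in BRAF. Its difference from BRAF was 1.38 ± 0.18 in SMAD4KO_BRAF (adjusted p = 0.0901) and 0.49 ± 0.20 in the labelled libraries (adjusted p = 0.168). Next in order of p in SMAD4KO_BRAF were the urea transporter gene Slc14a1 (1.75, limma adjusted p = 0.116) and the gastrokine gene Gkn3 (1.61, 0.179). The growth factor gene Pdgfa (1.19, 0.188), Fam84a (-1.14, 0.216) and the homeobox gene Tgif1 (0.46, 0.238) followed. Slc14a1 reached 1 FPKM in SMAD4KO_BRAF alone, so only the group where it is high carried it past the filter, which limits its p.

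In the libraries labelled CDX2KO_BRAF this list moved in both directions. Against BRAF 6 genes rose and 5 fell, beside 6.89% and 7.21% of all genes. Tnfrsf19, among the 6, reached 1 FPKM in the labelled libraries alone, which carried it past the filter and limits that count. Of these 29, 7 passed with a block for the column number, as 1181 of 12084 genes in all did. Without SMAD4KO_BRAF library 2, 8 of the 29 passed, as 1427 of 11905 genes did. Fewer passed when either labelled library was left out, as over all genes, and each such fit keeps 1 labelled library. Gkn3, which the stomach also expresses, rose to 130 and 217 FPKM, against 3.10, 2.05 and 3.28 in BRAF (log2 5.49 ± 0.39, limma adjusted p = 0.000482). The cholesterol esterification gene Soat1 (0.99, adjusted p = 0.00821), Igfbp4, which encodes an IGF-binding protein (1.61, 0.00860), and the potassium channel gene Kcnq1 (1.52, 0.00959) rose too. The vitamin D receptor gene Vdr (-3.02, adjusted p = 0.00421) and the telomerase gene Tert (-1.48, 0.00587) fell. Relative to SMAD4KO_BRAF 3 genes of the list rose and 7 fell in the labelled libraries, beside 6.6% and 5.01% of all genes. Here too fewer of the list passed when either labelled library was left out. Among those that fell, Slc14a1 was at 0 and 0.0448 FPKM in the labelled libraries, against 3.10, 6.67 and 4.79 in SMAD4KO_BRAF (log2 -2.47, limma adjusted p = 0.00318). Slc14a1 reached 1 FPKM in SMAD4KO_BRAF alone, the group where it is high, which limits that p and the count of 7. Pdgfa fell by 2.45 (adjusted p = 0.00487), and Lgr5 fell by 0.89 (0.0342), which passed in 10 of 19 alternatives.

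**Figure D4:**
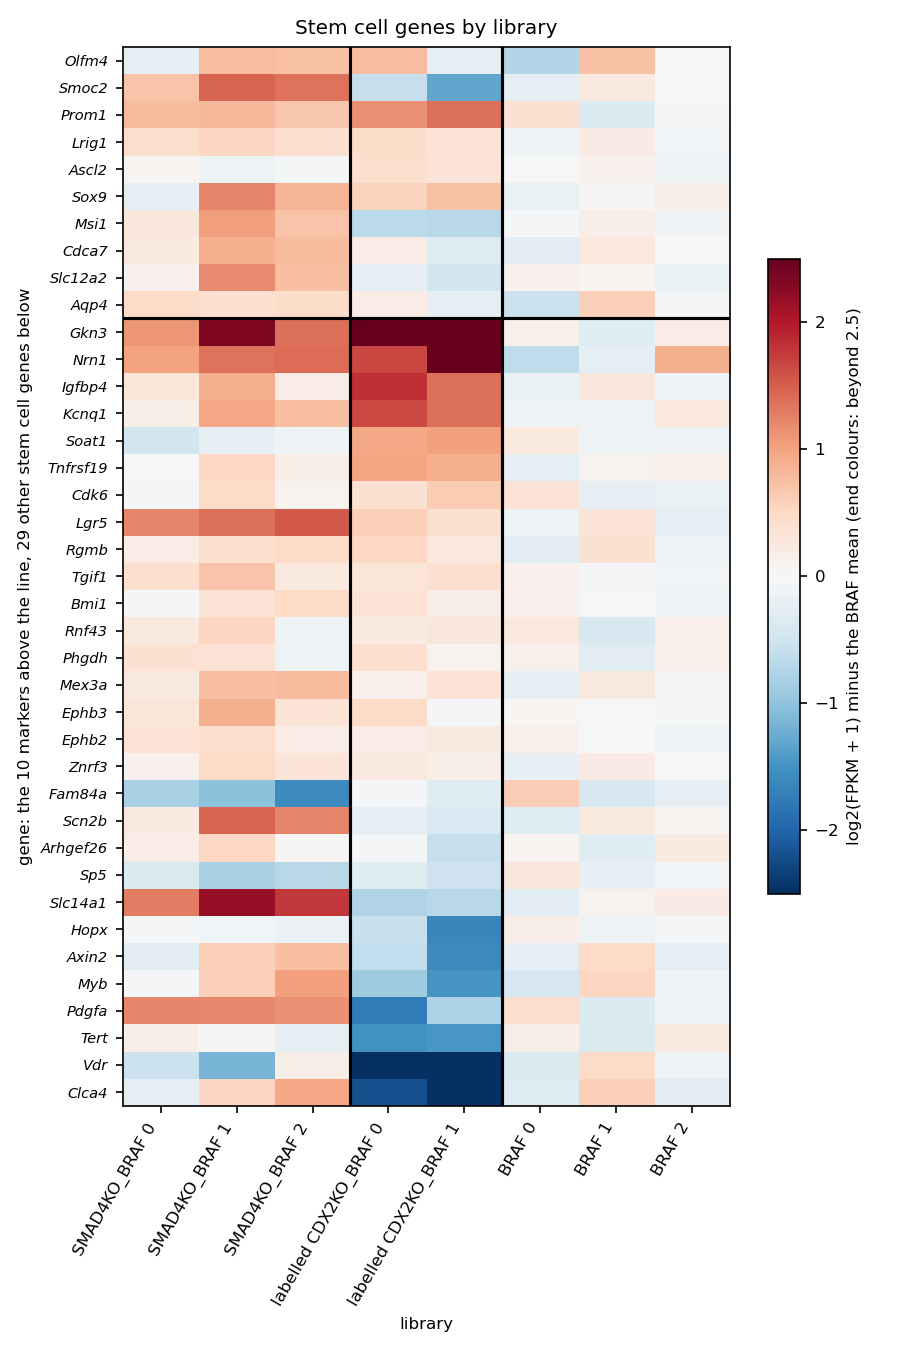
Colour gives the difference of log2(FPKM + 1) from the mean of the BRAF libraries (end colours beyond 2.5), per library (columns), for the 10 markers above the line and 29 other stem cell genes below it (rows). The labelled libraries hold both the reddest and the bluest genes, from Gkn3 to Clca4, while the SMAD4KO_BRAF columns are mostly red, with 23 of 29 other genes positive.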

How the data were processed

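RNA of 8 mouse jejunal crypt samples (TruSeq v2 libraries, 50 bp single-end reads, per the labels' protocols) was analysed from 1 table of FPKM deposited by the authors. TopHat2 2.1.0, Cuffnorm 2.2.1, Cuffdiff 2.2.1 and build mm9 are named in the submitters' processing notes. The program behind the deposited FPKM is not given in the sources used here. Table columns are numbered from 0 and sample titles from 1, so columns were matched to groups only and libraries carry the column number. A further 3 columns match no sample and were not used.

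From the deposited FPKM, log2(FPKM + 1) was fitted for all 3 groups in 1 model with limma 3.58.1 (R 4.3.3) with a mean-variance trend, two-sided. Benjamini-Hochberg adjustment ran over 12084 genes in each of 3 comparisons. The markers, lists, comparisons and rules were chosen with earlier results of these data known. All 10 markers are named. Of the other stem cell genes, the 6 with the smallest adjusted p per comparison could be named, and like profiles were sought only for markers with a standard deviation of at least 0.5, among genes with a mean FPKM of at least 5. Promoters are shown only for markers that passed in a comparison.

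The fit was tested on simulated data in 10 simulations per comparison, with 200 of 12084 genes changed. Values were drawn from normal distributions, independently for each gene, with the same spread in every library. Only genes with a mean log2(FPKM + 1) above 2 were changed, which leaves out Ascl2. Real libraries may differ in spread and genes may vary together, so the shares below may not hold for the deposited data. For SMAD4KO_BRAF against BRAF it called 61.1% of the genes given a change of log2 1 and 88.4% of those given log2 2, and 4.75% of calls were false. These shares were 52.2%, 89.3% and 5.18% for CDX2KO_BRAF against BRAF, and 53.7%, 88.3% and 5.82% for CDX2KO_BRAF against SMAD4KO_BRAF. Values were also computed with library weights, a block for the column number, quantile or median-ratio scaling, a filter at 5 FPKM or none, 0.1 as pseudocount, no trend, a fit of just the compared pair of groups, and without each library in turn. A term for sex, read from Y-linked genes, and female libraries alone were added after seeing the data. Figures used Python 3.11.15 and matplotlib 3.10.9.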

Additional observations from a re-analysis of the deposited data

Results flagged for a closer look

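Smoc2 and Msi1 are given again because the libraries of the deletions lay on opposite sides of BRAF and the direct comparison of the deletions passed. This rule was applied to the markers only, so the share of all genes that meet it is not known. Of all genes, 8.99% lay above BRAF in every SMAD4KO_BRAF library and 22.7% lay below BRAF in both labelled libraries. Between the deletions 5.01% of all genes fell in the labelled libraries. Neither gene passed in either comparison with BRAF. For Smoc2 all libraries labelled CDX2KO_BRAF lay below BRAF and all SMAD4KO_BRAF libraries above it, with log2 -2.11 between the deletions (limma adjusted p = 0.00656). For Msi1 the same held, with log2 -1.37 (adjusted p = 0.0104). Cdx2 itself was higher in the libraries labelled CDX2KO_BRAF than in any other, so the direction rests on the label. Groups of 3 and 2 libraries are too small for a search for single outlying libraries.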

How the results depend on the processing

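No alternative turned the sign of a marker that passed. With library weights 6 markers passed in SMAD4KO_BRAF against BRAF, 5 in the labelled CDX2KO_BRAF libraries against BRAF and 4 between the deletions, as 1069, 2602 and 2447 genes in all did. The cause of this was not tested. With sex as a term 0, 3 and 4 markers passed. In the first comparison 78 genes in all passed. The totals for the other comparisons are not given here, so 3 and 4 have no share of all genes beside them. With only the 2 groups compared 3 markers passed in the labelled libraries against BRAF, as 1362 of 12084 genes in all did. Without a filter 5 genes in all were called in SMAD4KO_BRAF against BRAF, and 16 in female libraries alone.

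Leaving out each library in turn gave 0 markers in SMAD4KO_BRAF against BRAF, 0 to 4 in the labelled libraries against BRAF and 0 to 3 between the deletions, with 5 to 25, 409 to 1833 and 234 to 1423 genes called in all. Leaving out a labelled library leaves 1, which is assumed to vary like the other groups. In the labelled libraries against BRAF, 4 markers passed without SMAD4KO_BRAF library 0, as 1833 of 11998 genes in all did. In the same comparison 2 markers passed without BRAF library 1. Between the deletions 1 passed without CDX2KO_BRAF library 0 and 0 without library 1. The median of the markers in the labelled libraries against BRAF was -0.23 without CDX2KO_BRAF library 0.

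Of the 29 other stem cell genes, 0 to 1 passed in SMAD4KO_BRAF against BRAF, 4 to 9 in the labelled libraries against BRAF and 3 to 10 between the deletions when 1 library was left out, and 0, 7 and 6 under the replicate block.

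The replicate block used the column number, since titles could not be matched to columns. Deviations of same-numbered SMAD4KO_BRAF and BRAF libraries correlated at 0.24, -0.05 and 0.00 across genes. Library 0 was male in both groups. These values do not settle whether the numbers pair the samples. Under the block 0, 1 and 2 markers passed, as 10, 1181 and 805 genes in all did. The median change of all genes stayed within 0.0694 of 0 in every alternative. The number of reads is unknown, so no counting error could be set for any marker.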
